A study of Mus musculus with 4 samples.

Results

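The genes described here encode calcineurin, the calcium-responsive NFAT transcription factors and the Rcan regulators, which together carry a rise of cytosolic calcium to the nucleus. They were the rows of the deposited gene table whose gene name was one of 10: the catalytic subunits Ppp3ca, Ppp3cb and Ppp3cc, the regulatory subunit Ppp3r1, the factors Nfatc1, Nfatc2, Nfatc3 and Nfatc4, and the regulators Rcan1 and Rcan3. All 10 were found among the 56493 genes listed, and each had at least 1 count in some library. The study measured RNA in the epidermis of mouse dorsal skin, lifted off with sodium thiocyanate, in 2 groups of 2 libraries. The knockout group (cKO) carried a conditional knockout of Stim1 and Stim2 by a Cre recombinase under the keratin 14 promoter, and the control group carried the floxed Stim1 and Stim2 alleles (Flox/Flox). Both groups therefore share the floxed alleles, and the deletion is aimed at keratin 14-expressing epithelium, so immune, muscle and dermal cells caught in the sheet are outside its target. The labels used here give no age, sex or strain. Nothing in them says that the libraries of a group came from separate animals, so the tests measure only the spread between these libraries, which may be technical.

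Calcineurin is a phosphatase that is switched on by calcium and calmodulin. It pairs a catalytic subunit, which holds the active site and the calmodulin-binding segment, with a small calcium-binding regulatory subunit that it needs for activity. Active calcineurin removes phosphates from NFAT proteins, which then enter the nucleus and switch on genes. Entry of calcium through store-operated channels, which STIM1 and STIM2 open, is the classical trigger. Rcan proteins bind calcineurin and restrain it, and Rcan1 is itself a classical NFAT target. In skin, Nfatc1 is known for keeping hair follicle stem cells at rest, and calcineurin inhibitors are used against inflammatory skin disease.

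The libraries were shallow, with total counts from 118858 (cKO replicate 2) to 322426 (control replicate 2). Levels are given as normalised counts (CPM, counts per 1000000 counts in the tested genes after TMM scaling). The limit that a count of 0 allows, taken as 3 counts, was 12.1 CPM in cKO replicate 1, 33.7 CPM in cKO replicate 2, 16.01 CPM in control replicate 1 and 9.58 CPM in control replicate 2, and covers counting error only. The targeted gene Stim1 was counted 23 and 6 times in the cKO libraries and 24 and 62 times in the controls, or 93.0 and 67.4 CPM against 128 and 198 CPM (edgeR adjusted p = 0.671). Stim2 was counted 0 and 1 times in the cKO libraries and 3 and 18 times in the controls and did not reach the count filter. Transcripts of Stim1 thus remained in the knockout libraries, and where the deleted part lies relative to the counted 3' end is not given in the sources used here, so these counts do not check the deletion. Over all 4243 tested genes, 36 (0.848%) passed an adjusted p under 0.05 in edgeR's quasi-likelihood test, and 8.39% had an unadjusted p under 0.05. Leaving out cKO replicate 1 raised the 36 to 82, and leaving out cKO replicate 2 raised it to 86. Values for cKO are given in the order of replicate 1 and replicate 2 throughout, and so are those for control.

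None of the members passed the threshold between cKO and control. Of the 10, 5 passed the count filter and could be tested (Ppp3ca, Ppp3cb, Ppp3r1, Nfatc2 and Nfatc3), and 0 of these 5 had an adjusted p under 0.05 with edgeR, DESeq2 or limma-voom. Over all tested genes 0.848% passed with edgeR in either direction, and 0.189% passed and were lower in cKO. At an unadjusted p under 0.05 the number of members was also 0 with each of these tools, against 8.39% of all tested genes with edgeR. With only 5 members tested, 0 is near both of these edgeR shares and does not set the members apart. The tested members had log2 fold changes (cKO over control) below 0 in 2 cases and above 0 in 3, with a median of 0.18, against a median of 0.01 over all tested genes, of which 49.6% were below 0. The member with the largest difference was Ppp3r1, whose mean in cKO was 45.7% of that in control. The other 4 tested members differed by less than the spread between replicates.

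**Figure D1:**
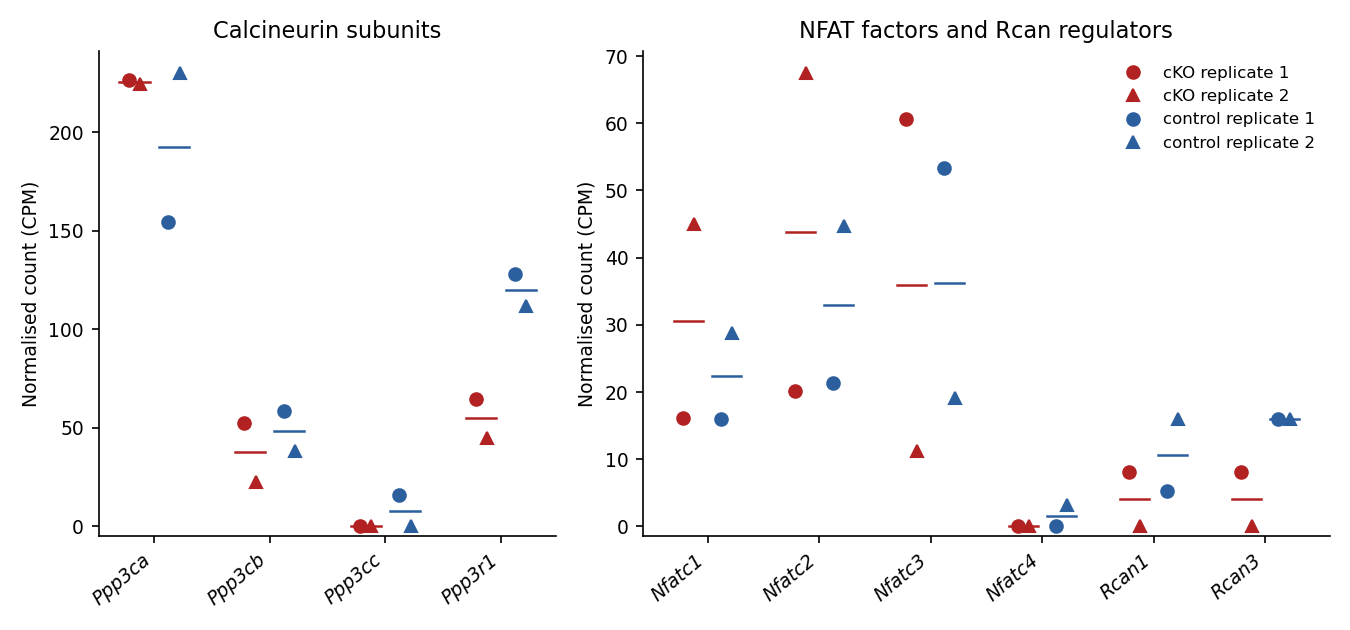
Normalised counts (CPM, vertical axes) of the 10 members in each library, calcineurin subunits on the left and NFAT and Rcan genes on the right, with red for cKO, blue for control, circles for replicate 1, triangles for replicate 2 and short lines for group means (n = 2). Ppp3r1 lies at 64.7 and 44.95 CPM in cKO and at 128 and 112 CPM in control, while Nfatc2 and Nfatc3 spread as widely within groups as between them.

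The catalytic subunits were carried by Ppp3ca. Ppp3ca (ENSMUSG00000028161, chromosome 3, 136375885 to 136643488, plus strand), a widely expressed catalytic subunit with high levels in brain, was counted 56 and 20 times in the cKO libraries and 29 and 72 times in the controls. These are 226 and 225 CPM in cKO and 155 and 229.9 CPM in control, so both cKO values lay between the control values. Ppp3ca averaged 226 ± 1.18 CPM in the cKO libraries and 192 ± 53.2 CPM in the controls (SD, n = 2 each). The log2 fold change of Ppp3ca was 0.22 ± 0.45 (standard error, edgeR adjusted p = 0.988), and its 95% interval ran from 0.596 to 2.27 times the control level. Its sign was not settled, since it became -0.03 without control replicate 1 and -0.04 with library totals as the only scaling, a scaling that moved the median of all tested genes to -0.24. Ppp3ca was the best measured member, with 177 counts in all.

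Ppp3cb (ENSMUSG00000021816, chromosome 14, 20549432 to 20596641, minus strand), another widely expressed catalytic subunit, was counted 13 and 2 times in the cKO libraries and 11 and 12 times in the controls. The levels of 52.6 and 22.5 CPM in cKO and 58.7 and 38.3 CPM in control overlapped. The log2 fold change of Ppp3cb was -0.21 ± 0.81 (standard error, edgeR adjusted p = 0.992), and its sign turned to 0.15 when cKO replicate 2 was left out and to 0.08 when control replicate 1 was. The 95% interval of Ppp3cb ran from 0.256 to 2.904 times the control level. Ppp3cc (ENSMUSG00000022092, chromosome 14, 70455314 to 70526920, minus strand), a catalytic subunit best known from testis, was seen in control replicate 1 alone, with 3 counts. Both groups were at or under 3 counts per library, so no fold is given. Ppp3ca made up 81.2% and 90.9% of the catalytic counts in the cKO libraries and 67.4% and 85.7% in the controls. The exact 95% intervals of these shares (69.9% to 89.6%, 70.8% to 98.9%, 51.5% to 80.9% and 76.4% to 92.4%) overlapped. Summed over the catalytic subunits, the level was 279 and 247 CPM in cKO and 229 and 268 CPM in control, which overlapped as well.

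The regulatory subunit differed more. Ppp3r1 (ENSMUSG00000033953, chromosome 11, 17109263 to 17150375, plus strand), which encodes the calcium-binding subunit calcineurin B, was counted 16 and 4 times in the cKO libraries and 24 and 35 times in the controls. The corresponding levels were 64.7 and 44.95 CPM in cKO and 128 and 112 CPM in control. Both cKO libraries were below both control libraries, as in 19.6% of all tested genes. Ppp3r1 averaged 54.8 ± 13.96 CPM in the cKO libraries and 119.9 ± 11.5 CPM in the controls (SD, n = 2 each). Ppp3r1 had a log2 fold change of -1.06 ± 0.58 (standard error), which did not pass the threshold (edgeR adjusted p = 0.709, unadjusted p = 0.0915). The 95% interval of the fit ran from 0.202 to 1.15 times the control level. Of all tested genes, 8.06% had a log2 fold change as low or lower. Under the 14 alternatives the log2 fold change of Ppp3r1 stayed between -1.44 and -0.87, and the adjusted p between 0.514 and 0.9997. The summed levels of skeletal muscle markers were likewise lower in both cKO libraries (44.5 and 135 CPM against 1451 and 1006 CPM). So were those of T cell markers (247 and 191 CPM against 347 and 275 CPM), though the marker Thy1 had a log2 fold change above 0. The part of either cell type in the value of Ppp3r1 was not tested.

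Some reads of Ppp3r1 may belong to a neighbour. Its exons share 462 bases with Dnaaf10 on the same strand, and the deposited table counts a read for every gene it overlaps on its strand, as far as its values show. Dnaaf10 was counted 3 and 2 times in the cKO libraries and 2 and 3 times in the controls. With all of these taken off, a correction chosen after seeing the data, Ppp3r1 was counted 13 and 2 times in the cKO libraries and 22 and 32 times in the controls, or 52.6 and 22.5 CPM against 117 and 102 CPM. The pooled counts of Ppp3r1, 20 in cKO and 59 in control, gave a ratio of 0.505 per normalised library size, with an exact 95% counting interval from 0.288 to 0.85. With the counts of Dnaaf10 taken off, the ratio was 0.413 (0.217 to 0.743). Such intervals hold counting error only and leave out the differences between libraries that the edgeR interval includes.

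The share of the regulatory subunit among calcineurin counts does not depend on how the libraries are scaled. This share was examined after the values of Ppp3r1 were seen. Of the counts of Ppp3ca, Ppp3cb, Ppp3cc and Ppp3r1 together, Ppp3r1 took 18.8% in cKO replicate 1 (16 of 85, exact 95% interval 11.2% to 28.8%) and 15.4% in cKO replicate 2 (4 of 26, 4.36% to 34.9%). It took 35.8% in control replicate 1 (24 of 67, 24.5% to 48.5%) and 29.4% in control replicate 2 (35 of 119, 21.4% to 38.5%). The groups did not overlap, but the interval of each cKO library overlapped that of each control library. The means were 17.1% ± 2.43 (SD, n = 2) and 32.6% ± 4.53 (SD, n = 2), a difference of -15.5 percentage points. An exact two-sided permutation test over the 4 libraries gave p = 0.333, the smallest this design allows. Groups of this size that do not overlap always give this value, so the test adds nothing to that description.

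**Figure D2:**
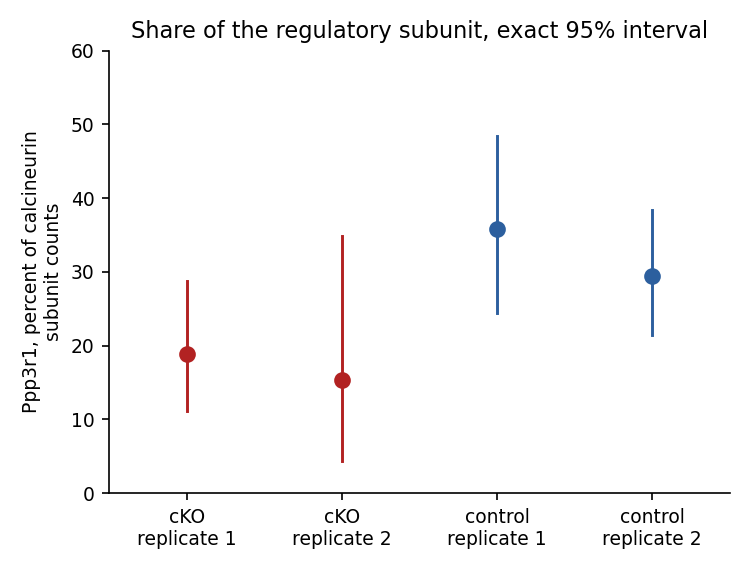
Percent of calcineurin subunit counts taken by Ppp3r1 (vertical axis) in each library, with exact 95% intervals for counting error (red, cKO; blue, control). The cKO libraries lie at 18.8% and 15.4% and the control libraries at 35.8% and 29.4%, with overlapping intervals.

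Among the NFAT factors, the libraries of a group differed from each other as much as the groups did. Nfatc2 (ENSMUSG00000027544, chromosome 2, 168318330 to 168443577, minus strand), an NFAT factor best known from T cells, was counted 5 and 6 times in the cKO libraries and 4 and 14 times in the controls. In CPM these were 20.2 and 67.4 in cKO and 21.3 and 44.7 in control. The highest and the lowest library of Nfatc2 were thus both cKO libraries. The log2 fold change of Nfatc2 was 0.18 ± 0.99 (standard error, edgeR adjusted p = 0.996). It became -0.73 without cKO replicate 2, -0.19 without control replicate 1 and -0.11 with library totals as the only scaling.

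Nfatc3 (ENSMUSG00000031902, chromosome 8, 106785472 to 106857169, plus strand), a factor with broad expression, showed the opposite order of libraries. It was counted 15 and 1 times in the cKO libraries and 10 and 6 times in the controls, or 60.7 and 11.2 CPM against 53.4 and 19.2 CPM. The highest and the lowest library were again both from cKO. The log2 fold change of Nfatc3 was 0.25 ± 0.96 (standard error, edgeR adjusted p = 0.992), and its sign turned to -1.63 when cKO replicate 1 was left out and to -0.38 when control replicate 2 was. With the replicate number as a block it was -0.12. The last 219 bases of Nfatc3 are shared with exons of Esrp2 on the opposite strand. Esrp2, which encodes an epithelial splicing factor, was counted 13 and 2 times in the cKO libraries and 9 and 5 times in the controls, close to those of Nfatc3 in every library. Other pairs of overlapping genes in the table were counted by strand. For Nfatc3 and Esrp2 themselves the assignment of reads was not tested.

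Nfatc1 (ENSMUSG00000033016), the factor of hair follicle stem cells, fell short of the count filter with 4 counts per cKO library and 3 and 9 in the controls. The levels were 16.2 and 44.95 CPM in cKO and 16.01 and 28.7 CPM in control, and they overlapped. In a fit to which the members below the filter were added (4248 genes), the log2 fold change of Nfatc1 was 0.20 ± 1.17 (standard error, edgeR adjusted p = 0.997). Its 95% interval ran from -2.30 to 2.71 on the log2 scale. Nfatc4 (ENSMUSG00000023411, chromosome 14, 56060601 to 56071400, plus strand) was seen in control replicate 2 alone, with 1 count, so no fold is given. Summed over the 4 factors, the level was 97.04 and 124 CPM in cKO and 90.7 and 95.8 CPM in control. The 35 pooled counts in cKO and 47 in control gave a ratio of 1.11, with an exact 95% counting interval from 0.695 to 1.75. Both cKO sums of the NFAT factors lay above both control sums, but only narrowly, at 97.04 against 95.8 CPM where they came closest. The counting interval included no difference.

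The Rcan genes were near the limit of detection. Rcan1 (ENSMUSG00000022951, chromosome 16, 92188841 to 92267755, minus strand), the NFAT-induced inhibitor of calcineurin, was counted 2 and 0 times in the cKO libraries and 1 and 5 times in the controls. The pooled counts gave a ratio of 0.496, with an exact 95% counting interval from 0.04897 to 2.77. Rcan3 (ENSMUSG00000059713, chromosome 4, 135139619 to 135161164, minus strand), its relative, was counted 2 and 0 times in the cKO libraries and 3 and 5 times in the controls, a ratio of 0.372 (0.0385 to 1.86). Both intervals include no difference. With an upper limit of 33.7 CPM for a count of 0, cKO replicate 2 could hold either gene at the level seen in control. The Rcan genes together had 4 counts in cKO and 14 in control. Neither passed the count filter, and in the fit with members added the adjusted p was 0.987 for Rcan1 and 0.958 for Rcan3 (edgeR).

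Rcan1 is the member whose promoters are tied to the pathway, and its pair of start regions is shown for that reason. RefSeq (GRCm38.p6) places starts of Rcan1 at the first exon and, downstream, at an alternative exon from which the calcium-inducible isoform is read. The libraries were made from the 3' end of transcripts, so the counts of Rcan1 given above do not separate these starts. Each sequence runs 5′ to 3′ on the minus strand, from 250 bases before to 50 bases after the start, and capitals mark GGAAA, the core of NFAT binding sites, on either strand.
Rcan1 upstream start, chr16:92466120-92466419: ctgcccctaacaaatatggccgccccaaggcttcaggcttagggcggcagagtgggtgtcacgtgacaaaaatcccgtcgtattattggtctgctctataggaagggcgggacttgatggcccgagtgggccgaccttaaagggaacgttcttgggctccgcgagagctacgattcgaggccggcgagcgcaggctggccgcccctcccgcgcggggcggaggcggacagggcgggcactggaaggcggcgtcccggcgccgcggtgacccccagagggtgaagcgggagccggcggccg
Rcan1 downstream start, chr16:92400029-92400328: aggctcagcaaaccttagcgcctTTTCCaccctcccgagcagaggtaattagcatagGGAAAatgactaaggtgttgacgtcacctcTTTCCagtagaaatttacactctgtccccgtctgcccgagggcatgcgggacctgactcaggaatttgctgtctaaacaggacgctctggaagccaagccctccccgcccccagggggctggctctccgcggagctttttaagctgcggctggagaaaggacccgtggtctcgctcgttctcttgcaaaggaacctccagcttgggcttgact
The upstream region holds 0 matches and the downstream region 3, all before the start. Of the 32851 start regions in the RefSeq table, 61.3% hold at least 1 match and 9.42% hold at least 3. Start regions were found for 7 of the 10 members (not for Ppp3ca, Ppp3cc and Nfatc1), 10 regions in all, of which 7 hold a match. Ppp3r1 has 0 matches in its region, while Ppp3cb has 4; 2.65% of all regions hold at least 4. A match describes letters in this window and is neither a site nor a cause.

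Levels of different members are compared per kilobase of the feature length in the table, with the reserve that libraries of the 3' end do not scale with length. On this scale the mean over the 4 libraries was highest for Ppp3r1 at 27.1 CPM per kb, with libraries from 13.9 to 39.7. Ppp3ca followed at 20.9 CPM per kb (15.5 to 23.04), within the spread of Ppp3r1. The order of these subunits per kilobase differed between the groups. Ppp3r1 was above Ppp3ca in control, at 39.7 and 34.6 against 15.5 and 23.04 CPM per kb. It was below Ppp3ca in cKO, at 20.04 and 13.9 against 22.7 and 22.5 CPM per kb. In CPM, without division by length, the order did not change, and Ppp3ca was above Ppp3r1 in every library. Its levels were 226 and 225 against 64.7 and 44.95 CPM in cKO, and 155 and 229.9 against 128 and 112 CPM in control. Ppp3cb came next at 4.88 CPM per kb (2.55 to 6.66), and its highest library was below the lowest of Ppp3r1 and Ppp3ca. Nfatc2 at 3.63, Nfatc1 at 3.54 and Nfatc3 at 3.08 CPM per kb did not differ from Ppp3cb or from each other beyond their spread. Rcan1 at 2.38, Rcan3 at 1.96 and Ppp3cc at 1.34 CPM per kb each had at least 1 library at 0, and Nfatc4 was lowest at 0.137 CPM per kb.

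Pooled over all 10 members, 150 counts were found in cKO and 247 in control. The members took 0.04004% of all counts in cKO replicate 1 (95% Wilson interval 0.0333% to 0.0481%) and 0.0311% in cKO replicate 2 (0.0226% to 0.0429%). In control they took 0.0439% (0.0357% to 0.0541%) and 0.0493% (0.0422% to 0.0576%). After TMM scaling the sums were 457 and 416 CPM in cKO and 469.6 and 508 CPM in control, with group means of 436 ± 29.05 and 489 ± 26.99 CPM (SD, n = 2 each). The ratio of the means was 0.893. The pooled counts gave a ratio of 0.904, with an exact 95% counting interval from 0.733 to 1.11, which includes no difference. Without Ppp3r1 the sums were 392 and 371 CPM in cKO and 342 and 396 CPM in control, which overlapped. The ratio of the means was then 1.03. Without Ppp3ca, the member with the most counts, the ratio of the means was 0.711.

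**Figure D3:**
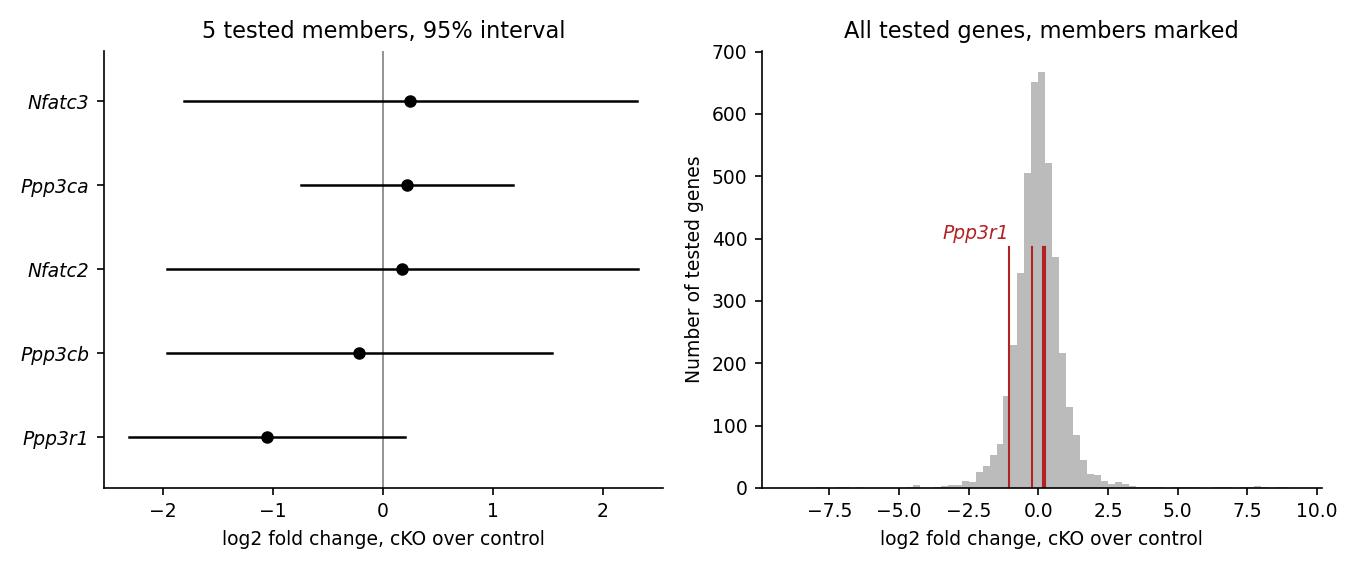
Left, log2 fold changes (horizontal axis, cKO over control) of the 5 tested members with 95% intervals from the edgeR fit; right, the number of tested genes (vertical axis) by log2 fold change, with red lines at the members. All 5 intervals include 0, and Ppp3r1 at -1.06 lies farthest from it.

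Other genes of the pathway were taken from 5 lists with 67 genes, of which 57 had a count and 23 were tested. With edgeR, 0 of the 23 had an adjusted p under 0.05, and 2 had an unadjusted p under 0.05 (Dyrk2 and Homer2), a share of 8.70% against 8.39% of all tested genes. DESeq2 and limma-voom also called 0, with 1 and 2 genes at an unadjusted p under 0.05. The log2 fold change was below 0 for 14 of the 23 and above 0 for 9, so 60.9% were below 0 against 49.6% of all tested genes, with a median of -0.37. The targeted gene Stim1 is among these 14.

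Upstream, the list of store-operated entry had 3 tested genes, including the targeted gene Stim1, all below 0, with a median of -0.68. Beside Stim1 (log2 fold change -0.98) these were Orai1, the pore of the store-operated channel, at -0.68, and Saraf, which turns the channel off, at -0.37. Orai1 was counted 22 and 12 times in the cKO libraries and 29 and 59 times in the controls. The levels of 88.96 and 135 CPM in cKO and 155 and 188 CPM in control did not overlap (edgeR adjusted p = 0.819). Of all tested genes, 19.6% were likewise lower in cKO without overlap. Saraf overlapped between groups and turned to 0.64 without control replicate 1, while without cKO replicate 2 it was 0.0014.

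Among direct partners of calcineurin, 6 of 13 genes were tested, 3 of them below 0, with a median of -0.03. Calm2 and Calm3 encode calmodulin, which binds the catalytic subunit when calcium rises. Calm2 was counted 78 and 24 times in the cKO libraries and 88 and 192 times in the controls, a log2 fold change of -0.88 (edgeR adjusted p = 0.625). Calm3 was counted 33 and 14 times in the cKO libraries and 19 and 21 times in the controls, a log2 fold change of 0.79 (edgeR adjusted p = 0.790). In both genes the groups did not overlap, in opposite directions. Of all tested genes, 38.5% did not overlap in either direction. Fkbp1a, the protein through which the drug tacrolimus blocks calcineurin, was at -0.82 (edgeR adjusted p = 0.880). The testis regulatory subunit Ppp3r2, the remaining Rcan gene Rcan2 and Myoz2, a calcineurin-binding protein of muscle, had 0 counts in all 4 libraries.

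The list of kinases, export factors and anchors of NFAT, which also holds the related transcription factor Nfat5, had 16 genes. Of these 7 were tested, 3 below 0, with a median of 0.15, and without Nfat5 the median of the remaining 6 was -0.21. Dyrk2, a kinase that primes NFAT for export, was counted 2 times in either cKO library and 22 and 28 times in the controls. The levels were 8.09 and 22.5 CPM in cKO and 117 and 89.4 CPM in control. The groups did not overlap, as in 19.6% of all tested genes in this direction. Pooled, the ratio of Dyrk2 was 0.119, with an exact 95% counting interval from 0.0312 to 0.324. It was not past the threshold (edgeR adjusted p = 0.174, unadjusted p = 0.00324), though it passed without cKO replicate 2 (adjusted p = 0.0237) and with crossed replicate numbers as a block (adjusted p = 0.0407). Over the 14 alternatives its edgeR, DESeq2 or limma-voom adjusted p ran from 0.0237 to 0.689, with 0.430 for the replicate block. The log2 fold change of Dyrk2 was -2.97, and it was -2.20 without cKO replicate 1 and -3.58 without cKO replicate 2. Homer2, a scaffold that binds NFAT, was counted 17 and 9 times in the cKO libraries and 22 and 107 times in the controls. Its log2 fold change of -1.52 (edgeR adjusted p = 0.462) rested on control replicate 2 and became -0.4964 without it. Gsk3b, which adds phosphates to NFAT after priming, was at -0.57 (edgeR adjusted p = 0.875), with a range from -1.07 to -0.31 when 1 library was left out.

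Other substrates of calcineurin had 3 tested genes of 12. Tfe3, a transcription factor of lysosomal genes, was at 1.44 (edgeR adjusted p = 0.660). Its levels were 64.7 and 112 CPM in cKO and 37.4 and 25.5 CPM in control. Of all tested genes, 18.9% were likewise higher in cKO without overlap. Mef2a, a transcription factor, was at -0.75 (adjusted p = 0.773, edgeR), and Dnm1l, which divides mitochondria, at -0.71 (adjusted p = 0.747, edgeR). For both, the cKO libraries were below the control libraries, as in 19.6% of all tested genes. Leaving out single libraries moved Mef2a between -1.38 and -0.44 and Dnm1l between -1.08 and -0.41. Genes reported to be under NFAT control had 4 tested of 19, with a median of -0.23 and 3 below 0. The early response genes Egr3 and Egr2 were at -0.48 and -0.21, and the cyclin Ccnd1 at -0.24, with overlapping groups in each case. Their signs turned when single libraries were left out: Egr3 was 0.27 without control replicate 2 and 0.1952 without cKO replicate 1, Egr2 was 0.36 without control replicate 1, and Ccnd1 was 0.09 without cKO replicate 2. The cytokine genes Il4, Ifng, Tnf and Csf2 and the T cell ligand gene Cd40lg had 0 counts in all 4 libraries.

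The pattern of Ppp3ca over the 4 libraries was closest to those of Taok1, Eif3c and Ptpra among all tested genes. The root mean square difference of centred log2 values (CPM plus 10) was 0.0283, 0.0473 and 0.0524. With 4 libraries such likeness is a description only.

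Cells other than keratinocytes could hold part of these transcripts, since calcineurin and NFAT also act in T cells and skeletal muscle. In RNA from a whole tissue layer, fewer cells of a type and less RNA per cell cannot be told apart. Of the 10 skeletal muscle markers, all were detected, and their summed level was 44.5 and 135 CPM in cKO and 1451 and 1006 CPM in control. This list moved with the groups in the same direction as Ppp3r1, with all 6 tested genes below 0. Of these, 4 were lower at an edgeR adjusted p under 0.05, against 0.189% of all tested genes. Of 10 T cell markers 9 were detected (Trac was at 0), with sums of 247 and 191 CPM in cKO and 347 and 275 CPM in control. The T cell list was not uniform. Of its 3 tested genes 2 were below 0, Ptprc at -2.20 and Cd3g at -0.48, and Thy1 was at 1.36. Thy1 was counted 42 and 1 times in the cKO libraries and 10 and 9 times in the controls. The hair follicle bulge list had 873 and 1708 CPM in cKO and 2919 and 2130.0 CPM in control, nearly all of it Krt15. Without Krt15 the bulge sums were 32.3 and 157 CPM in cKO and 64.03 and 31.9 CPM in control, which overlapped. Basal keratinocyte markers, all 6 detected, summed to 8200.1 and 4698 CPM in cKO and 3186 and 2829 CPM in control. Krt14 was the largest part of this difference, with 4355 and 3001 CPM in cKO and 928 and 865 CPM in control (edgeR adjusted p = 0.0507). Without Krt14 the basal sums were 3845 and 1697 CPM in cKO and 2257 and 1964 CPM in control, which overlapped. Replicate 1 of cKO thus stayed above both control libraries, and replicate 2 of cKO was below both. Of the 6 tested basal markers, 0 had a log2 fold change below 0, against 49.6% of all tested genes. Langerhans cell markers (5 of 5 detected) summed to 1035 and 2900 CPM in cKO and 3762 and 2073 CPM in control, nearly all from Cd74 and class II histocompatibility genes. The defining gene Cd207 was at 4.04 and 0 CPM in cKO and 42.7 and 31.9 CPM in control, with 1 count against 18. It was lower in both cKO libraries, as was Ppp3r1, but a count of 0 in cKO replicate 2 allows up to 33.7 CPM. The other 4 Langerhans cell markers overlapped between groups, with log2 fold changes below 0 for all 4. Suprabasal markers (6 of 6) summed to 15600 and 10598 CPM in cKO and 7556 and 16060 CPM in control, and melanocyte markers (4 of 4) to 137 and 427 CPM against 326 and 86.2 CPM. Fibroblast and macrophage sums were highest in cKO replicate 2, at 607 and 337 CPM, against at most 160.1 and 67.1 CPM in the other libraries. In this shallowest library Nfatc2 and Nfatc1 were also highest, on 6 and 4 counts, and Nfatc3 was lowest, on 1 count. Fibroblasts had 5 of 6 markers detected (Pdgfra at 0) and macrophages 4 of 4. Endothelial markers reached at most 5.34 CPM, with Cdh5, Kdr and Tie1 at 0. The part of any of these cells in the member values was not tested.

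**Figure D4:**
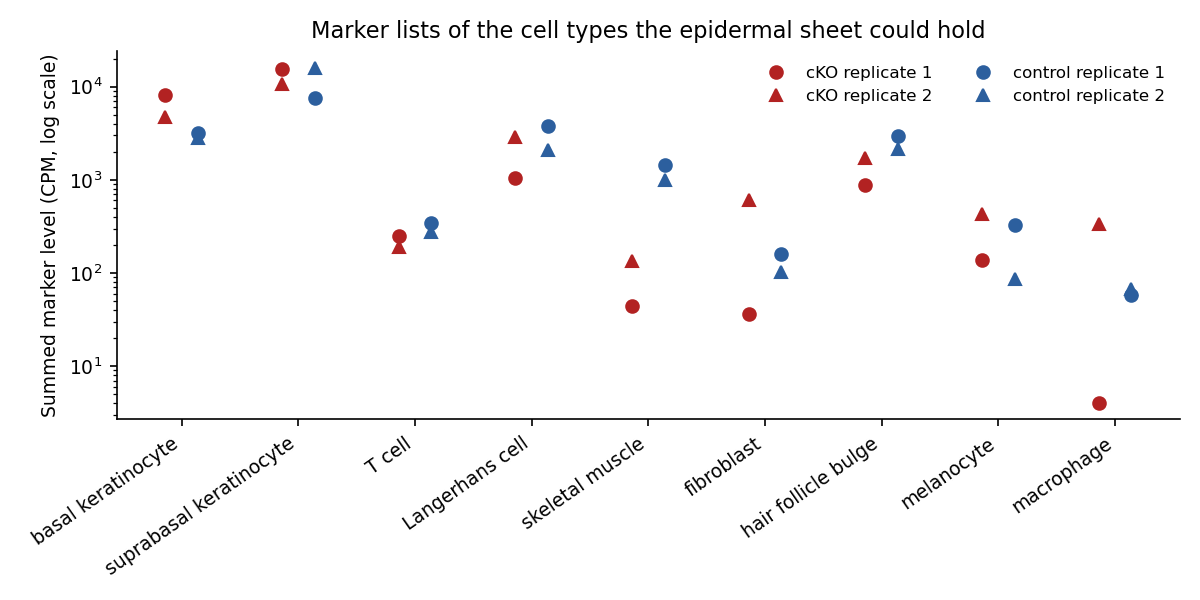
Summed CPM (vertical axis, log scale) of 9 marker lists in each library, with red for cKO, blue for control, circles for replicate 1 and triangles for replicate 2. Skeletal muscle markers lie at 44.5 and 135 CPM in cKO and at 1451 and 1006 CPM in control. The basal keratinocyte sum is higher in both cKO libraries, and without Krt14 it overlaps between the groups.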

How the data were processed

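RNA from the separated epidermal layer was sequenced as 3' libraries (QIAseq UPX kit, converted for MGI sequencing), per the labels' protocols. The authors deposited raw counts per gene. Trim Galore 0.6.7, Trimmomatic 0.39, cutadapt 3.7, STAR 2.7.10a, featureCounts 2.0.1 and the build GRCm39 are named in the submitters' processing notes, and the collapsing of molecular identifiers is not given in the sources used here. Coordinates are those of the deposited table. From the values, reads were counted for every gene they overlap on their strand: of 13 genes with at least 20 counts whose exons lie within those of a gene on the same strand, all 13 had no more counts than the outer gene in any library, whereas all 8 such genes on the opposite strand had more counts than the outer gene, which was at 0 for 5.

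Members, lists and tests were chosen with earlier results of these data known. Libraries were grouped by title. edgeR 4.0.16 (R 4.3.3) was run with filterByExpr (minimum count 10, minimum total 15; 4243 genes, 87.6% of counts), TMM scaling, default glmQLFit and glmQLFTest, a design of genotype alone and Benjamini-Hochberg adjustment at 0.05. It was tested on simulated data with planted changes larger than those of the tested members, so that test does not measure power at their size. Members under the filter were fitted after being added to those genes. Standard errors are the absolute log2 fold change over the square root of F. Pooled ratios use summed counts per summed normalised library size, with exact intervals from the binomial distribution. Named genes are the members, the targeted genes and, from each pathway list, called genes and the 3 tested genes with the largest absolute change whose mean reached 10 CPM. Alternatives were other scalings and filters, DESeq2 1.42.0, limma-voom (limma 3.58.1), glmQLFit with legacy set to FALSE, the replicate number as a block and each library left out. With blastn 2.17.0, no GENCODE M21 transcript outside the overlapping neighbours matched a member at 95% identity over 150 bases.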

Additional observations from a re-analysis of the deposited data

How the results depend on the processing

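No member passed the threshold under any of the 14 alternatives (0 called in each). Ppp3r1 kept its direction in all of them; the other tested members did not. With library totals as the only scaling, 4 of the 5 tested members were below 0 in place of 2, Ppp3ca was at -0.038 and Nfatc2 at -0.11, and the ratio of pooled member sums was 0.763 in place of 0.893. Without the member with most counts that ratio was 0.711. limma-voom put Ppp3cb at 0.14, Nfatc2 at -0.66, Egr2 at 0.037 and Saraf at 0.34. The number of genes called over the whole table, 36, was 75 without a count filter, 55 with a mean of at least 10 CPM, 17 under the replicate block and 15 by limma-voom. Under the replicate block Nfatc3 was at -0.12, and it changed no call of a member. The replicate numbers do not pair the libraries by the labels; deviations of same-numbered libraries correlated at -0.20, and a block with crossed numbers, chosen after seeing the data, called 147 genes.

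With each library left out in turn, the genes called ranged from 52 to 86 and the tested members below 0 from 2 to 3. The log2 fold changes ranged from -0.026 to 0.56 for Ppp3ca, from -1.11 to 0.15 for Ppp3cb, from -0.73 to 0.93 for Nfatc2 and from -1.63 to 1.05 for Nfatc3. For Egr3 the range was -1.33 to 0.27, for Egr2 -0.67 to 0.36, and for Saraf -1.26 to 0.64. Ccnd1 ranged from -1.05 to 0.087 over 3 omissions and had no value without control replicate 2, where it did not pass the count filter. The share of Ppp3r1 among calcineurin counts differed by -18.7 to -12.3 percentage points in these settings. In the setting without a library, the lone library of a group is assumed to vary like the other group. The causes of these shifts were not tested. Depth limits the Rcan genes, Nfatc4 and Ppp3cc most, since at most 5 counts of any of them were found in a library.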

Other observations

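Some genes of the pathway lists that did not reach the count filter had counts almost confined to control; they were singled out after their values were seen. Bad, a cell death protein that calcineurin dephosphorylates, was counted 1 and 0 times in the cKO libraries and 11 and 7 times in the controls. These are 4.04 and 0 CPM in cKO and 58.7 and 22.4 CPM in control. Mef2c, a calcineurin-responsive transcription factor, was counted 0 and 1 times in the cKO libraries and 13 and 4 times in the controls. In CPM, Mef2c was at 0 and 11.2 in cKO and at 69.4 and 12.8 in control, so it stood apart mainly in control replicate 1. Atf3, a stress-induced transcription factor, had 0 counts in both cKO libraries and 8 in each control library. Other genes of these lists below the filter were higher in both cKO libraries. Gsk3a was at 32.3 and 78.7 CPM in cKO and at 10.7 and 25.5 CPM in control. Prkaca was at 40.4 and 56.2 CPM against 26.7 and 25.5 CPM, and Crtc3 at 24.3 and 44.95 CPM against 16.01 and 15.97 CPM. How often either pattern occurs among all genes under the filter was not counted. None of these genes was tested in the fit over filtered genes.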
